A study of Mus musculus with 2 samples.

Results

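Periportal hepatocytes lie around the portal tracts, where blood enters the liver lobule, and are described here in liver regenerating 48 h after partial hepatectomy (PHx). They were represented by 187 droplet barcodes of the 1586 in the PHx48h library, out of 60788 barcodes in the whole series. The barcodes were chosen from the 765 barcodes (48.2% of the library) with over 30% of their unique molecular identifiers (UMIs) in mitochondrial genes. In each of these a zone share was computed, the UMIs of 7 perivenous genes as a percentage of the UMIs of those genes and 8 periportal genes together. Barcodes with at least 10 such UMIs formed a set of 744, and 21 were left out. The periportal barcodes were those with a zone share at or below its 25th percentile, 11.3%, and the other 557 barcodes of the set served as the comparison.

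Hepatocytes were isolated from C57BL/6 mice on a normal diet by collagenase perfusion, which dissociates the liver through its own vessels. In PHx most of the liver mass is cut away and the remnant regrows. The labels give an age of 10 to 12 weeks at surgery. Transcripts were counted with droplet single-cell RNA-Seq of the 3′ ends of mRNA, in 1 library from undamaged liver (0 h) and 1 library taken 48 h after PHx (PHx48h). Each library came from 1 hepatocyte preparation, so no difference below has a replicate check. Counting intervals are given at 95%, cover counting error only, and are not a test.

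Hepatocytes divide their work along the axis from the portal tract to the central vein. Periportal cells receive blood rich in oxygen and nutrients, and are known for gluconeogenesis, urea synthesis and the breakdown of amino acids. Perivenous cells, which depend on Wnt signals from the central vein, are known for glutamine synthesis, bile acid synthesis and the cytochrome P450 enzymes of drug metabolism. After PHx, hepatocytes across the lobule re-enter the cell cycle while continuing to supply these functions.

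The PHx48h library held 18198719 UMIs over 27998 genes, and the 0 h library 96118593 UMIs over 59202 barcodes. Mitochondrial UMIs made up a median of 55.9% of the UMIs of the periportal barcodes and 57.2% of those of the other barcodes. All levels are therefore given as CPM, the UMIs of a gene scaled to 1000000 non-mitochondrial UMIs. The periportal barcodes held 1688641 such UMIs in all, with 1194 in the shallowest, a median of 6496 and 35712 in the deepest. The other barcodes were shallower, with a median of 4130 and a total of 3379787. Results within deeper and shallower barcodes are therefore given beside the main comparison. The libraries shared 148 barcode sequences, and 16 periportal barcodes were among them.

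The zone share of the periportal barcodes ran from 0 to 11.3%, with a median of 7.69%. In 13 of them no perivenous UMI was seen. There was no gap at the limit, since the last periportal barcode had 11.29%, the first of the others had 11.36%, and 104 barcodes lay within 2 percentage points of the limit. The periportal barcodes are thus the low end of a continuous range and not a separate class. The spread of the zone share over the set was 9.17 times the variance that binomial counting gives. The same quotient was 3.02 in the 522 PHx48h barcodes with under 2% mitochondrial UMIs.

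**Figure D1:**
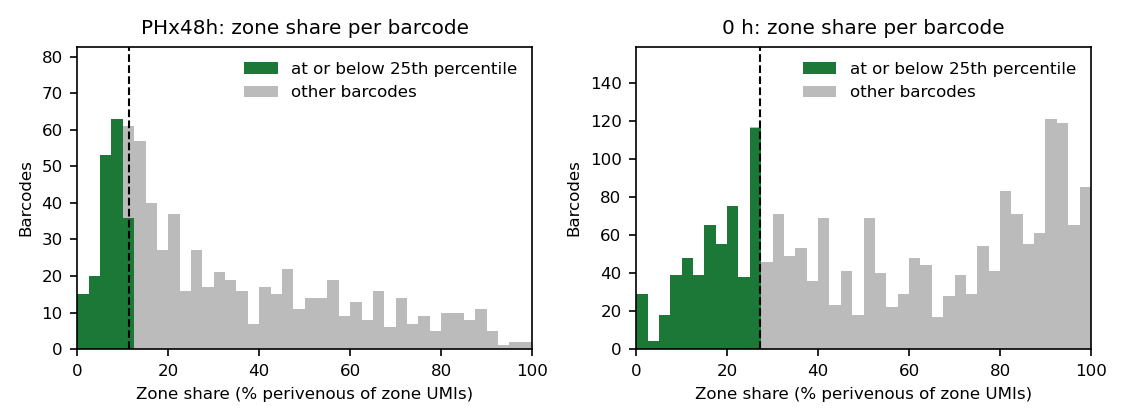
Zone share per barcode (x axis, % of zone UMIs in perivenous genes) against the number of barcodes (y axis) for barcodes over 30% mitochondrial UMIs, at PHx48h (left) and 0 h (right). Green bars are the barcodes at or below the 25th percentile, which at PHx48h are the periportal barcodes, grey bars stacked on them are the other barcodes, and the dashed line is that percentile, 11.3% at PHx48h and 27.3% at 0 h.

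The 8 periportal genes that entered the rule chose the barcodes and so are a description. In shares of the zone UMIs of the periportal barcodes, Ass1, which makes argininosuccinate in the urea cycle, held 21.7%. Hsd17b13, a protein of lipid droplets, held 17.1%, and Pck1, the gatekeeping enzyme of gluconeogenesis, held 15.96%. Cyp2f2, a P450 enzyme of the portal side, held 14.0%, the serine dehydratase Sds held 8.18% and the histidine lyase Hal held 4.22%. Ass1 was the leading zone gene in 76 barcodes, Hsd17b13 in 53, Pck1 in 31 and Cyp2f2 in 14. A periportal barcode held between 3 and 8 of the 8 genes, with a median of 7, and 63 barcodes held all 8. These genes defined the barcodes, so their presence is no check of the label.

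Each fixed marker of the periportal label was part of the rule. Cyp2f2 ran from 0 over a median of 1032 to 3488 CPM in the periportal barcodes, and its median was 401 CPM in the others. Sds had medians of 559 and 43.3 CPM, and Hal had medians of 320 and 0 CPM. On the perivenous side, Cyp2e1, a P450 enzyme of the central vein region, stood at 130 CPM in the summed periportal barcodes and 1000.1 CPM in the others. Glul, the glutamine synthetase found around the central vein, stood at 40.3 and 227 CPM. These values show the size of the separation that the rule imposed.

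The 10 hepatocyte markers were all present. Alb, which encodes albumin, ran from 26071 over a median of 55794 to 95692 CPM in single periportal barcodes. Markers of other liver cells were low except for the cholangiocyte list. The 12 macrophage markers summed to 14.2 CPM in the periportal barcodes and 36.4 CPM in the others, the 12 endothelial markers to 26.1 and 94.4 CPM, and the 12 stellate and stromal markers to 9.48 and 44.7 CPM. The neutrophil markers had 1 UMI in the periportal barcodes, the 7 erythroid markers summed to 27.8 and 26.9 CPM, and no UMI of the T and NK cell or the B cell markers was seen in either group. Of the cholangiocyte markers, Krt7, Krt19 and Epcam, which define bile duct cells, had 0 UMIs in the periportal barcodes. Most of the cholangiocyte sum of 309 CPM (209 CPM in the others) came from Tm4sf4, at 205 CPM, and from Spp1, at 78.2 CPM. At least 3 UMIs of markers of another class were held by 68 periportal and 110 other barcodes, and by 4 and 33 when the cholangiocyte list was left out.

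The question of the main comparison was which genes outside the rule differed between the portal end of the set and its remainder. Genes with at least 50 CPM in both groups together were compared, without the 15 zone genes and the 13 mitochondrial genes, and a gene was called when the level differed by at least 1.5-fold. Of 2456 genes compared, 16 were higher in the periportal barcodes (0.651%) and 64 were lower (2.61%). The minimum acts on the pooled level, where the others held more UMIs, so a gene could pass through 1 group alone. Cyp7a1 passed at 33.2 CPM in the periportal barcodes and 257 CPM in the others, and G6pc at 76.4 and 44.7 CPM. The counts of higher and lower genes, also within the lists and families below, depend in part on this. The median log2 ratio over all genes compared was -0.06. Of the genes that were lower, 14 belonged to the perivenous list fixed outside the rule, and of those that were higher, 9 belonged to the periportal list. Among the 115 periportal and 257 other barcodes at or over the median depth of the set, 19 genes were higher and 66 lower, and among the 72 and 300 under it 176 were higher and 337 lower. Without the barcodes that held markers of another class 39 were higher and 100 lower, and 18 and 62 when the cholangiocyte list was left out of these markers. Without the shared barcode sequences 22 were higher and 65 lower.

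Hsd17b6, an enzyme that oxidizes steroids and retinol (chr10:127990936-128007611, minus strand, GRCm38), had the highest ratio. It stood at 175 CPM in the periportal barcodes, 62.4 CPM in the middle barcodes and 19.3 CPM at the perivenous end. The middle is the 371 barcodes between the 25th and 75th percentiles of the zone share, and the perivenous end the 186 at or above the 75th. The 75th percentile was 48.2%, so the perivenous end also holds barcodes with mixed zone UMIs. The median zone share was 22.3% in the middle and 66.7% at the perivenous end. The log2 ratio of periportal to other barcodes was 1.77 (interval 1.495 to 2.05). In single barcodes it was detected in 48.1% of the periportal barcodes, with a median of 0 and a maximum of 1142 CPM, and in 21.5% of the others, with a maximum of 1108 CPM. The groups overlapped up to nearly the same CPM maximum, which depends on depth, and more of the periportal barcodes held the transcript. In UMIs the maximum was 24 in a periportal barcode and 6 in the others. At least 3 UMIs were held by 36 periportal and 11 other barcodes, and 10 barcodes held 39.0% of the periportal UMIs. After thinning each barcode to 2000 non-mitochondrial UMIs, 23.9% of 176 periportal barcodes held a Hsd17b6 UMI, against 9.0% of 500 others and 13.8% of the 522 barcodes with under 2% mitochondrial UMIs.

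Aldh1b1, a mitochondrial aldehyde dehydrogenase (chr4:45799022-45804604, plus strand), followed with a log2 ratio of 1.56 (interval 1.33 to 1.78). Its level per barcode ran from 0 over a median of 169 to 1484 CPM in the periportal barcodes and from 0 over a median of 0 to 1469 CPM in the others. It was detected in 66.8% and 28.4% of barcodes. At 2000 UMIs the shares were 35.8% and 12.8%, with 10.3% in the barcodes under 2% mitochondrial UMIs. Both CPM ranges started at 0 and ended near the same level, and again more of the periportal barcodes held the transcript. In UMIs the maxima were 18 and 11. At least 3 UMIs were held by 56 periportal and 31 other barcodes, and 10 barcodes held 28.5% of the periportal UMIs. Among barcodes at or over the median depth the log2 ratios of Hsd17b6 and Aldh1b1 were 1.88 and 1.52, and under it they were 1.37 and 1.69.

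Promoters are shown for the pair of genes with the highest ratios and, on the other side, for Cyp2a5 and Cyp2c29, which are among the 3 genes with the lowest ratios and hold letters of the motifs searched. They are RefSeq windows of GRCm38.p6, from 250 bases before to 50 bases after the annotated start, printed 5′ to 3′ on the strand of the gene. Capitals mark ATCAAAG, a core of the TCF/LEF motif through which Wnt signals act, and CAAAGTC, a core of the HNF4 motif of hepatocytes. Both were searched on both strands, and they share the letters CAAAG.
Hsd17b6 (chr10:128007562-128007861, minus strand): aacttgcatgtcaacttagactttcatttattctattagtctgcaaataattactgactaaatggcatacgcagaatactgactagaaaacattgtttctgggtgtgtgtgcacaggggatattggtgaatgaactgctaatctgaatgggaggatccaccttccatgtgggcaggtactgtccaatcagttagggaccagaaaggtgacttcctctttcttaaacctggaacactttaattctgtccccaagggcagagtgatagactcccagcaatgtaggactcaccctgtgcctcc
Aldh1b1 (chr4:45798772-45799071, plus strand): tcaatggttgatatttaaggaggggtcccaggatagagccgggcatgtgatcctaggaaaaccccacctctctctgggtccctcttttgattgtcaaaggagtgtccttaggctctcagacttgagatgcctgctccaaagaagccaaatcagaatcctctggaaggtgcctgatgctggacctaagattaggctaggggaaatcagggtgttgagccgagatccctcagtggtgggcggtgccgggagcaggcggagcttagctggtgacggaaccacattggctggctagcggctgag
Cyp2a5 (chr7:26835089-26835388, plus strand): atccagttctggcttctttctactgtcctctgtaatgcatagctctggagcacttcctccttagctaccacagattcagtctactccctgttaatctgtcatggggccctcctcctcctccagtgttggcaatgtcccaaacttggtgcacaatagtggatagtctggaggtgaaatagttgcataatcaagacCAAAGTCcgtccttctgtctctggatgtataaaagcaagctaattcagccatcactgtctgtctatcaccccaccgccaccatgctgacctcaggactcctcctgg
Cyp2c29 (chr19:39286835-39287134, plus strand): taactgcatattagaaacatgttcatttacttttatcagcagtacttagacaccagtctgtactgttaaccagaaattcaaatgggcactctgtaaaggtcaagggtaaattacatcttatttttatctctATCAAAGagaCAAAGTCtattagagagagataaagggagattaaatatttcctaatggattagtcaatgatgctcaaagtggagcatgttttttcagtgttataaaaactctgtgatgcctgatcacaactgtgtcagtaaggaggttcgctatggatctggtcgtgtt
Of the genes lower in the periportal barcodes, 53 had a promoter in the table, of which 2 held the TCF/LEF letters and 4 the HNF4 letters. Of the genes higher, 9 had a promoter, of which 2 (Akap13 and G6pc) held the TCF/LEF letters and 1 (Akap13) the HNF4 letters. Among all 27025 promoters the shares were 3.72% and 4.36%, and among the 1931 promoters of the genes compared 2.64% and 4.87%. A match is only a description of the letters in these windows.

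Apoa4, an apolipoprotein of lipid transport, had a UMI in every periportal barcode and ran from 154 over a median of 3158 to 14274 CPM. In the others it ran from 0 over a median of 1460 to 9141 CPM, and the log2 ratio was 0.78 (interval 0.72 to 0.83). The periportal median was higher although the groups overlapped. Gls2, the liver glutaminase that frees ammonia for urea synthesis, ran from 0 over a median of 277 to 1829 CPM against a median of 0 and a maximum of 1442 CPM, with a log2 ratio of 0.74 (interval 0.56 to 0.91). Cdh1, which encodes E-cadherin of cell junctions, had a median of 152 CPM against 0 and a log2 ratio of 0.68 (interval 0.45 to 0.90). For Gls2 and Cdh1 the steepest step lay toward the central vein, with 52.3 and 18.2 CPM at the perivenous end, against 229 and 143 CPM in the middle barcodes.

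Sdsl, Gldc, Etnppl and G6pc were higher at levels between 76.4 and 133 CPM in the periportal barcodes. Sdsl, a relative of the serine dehydratase Sds, had a log2 ratio of 0.80, Gldc, of the glycine cleavage system, had 0.75, and Etnppl, which breaks down phosphoethanolamine, had 1.06. Sdsl stood at 91.2 CPM in the periportal barcodes and 5.69 CPM at the perivenous end, and its log2 ratio turned to -0.37 when barcodes were thinned to 1000 UMIs and chosen anew. G6pc, the glucose-6-phosphatase that releases glucose into the blood, had a log2 ratio of 0.77 on 76.4 CPM, but was no higher in the middle (42.8 CPM) than at the perivenous end (50.03 CPM). Cyp2u1, Tstd1, Akap13 and the HDL receptor Scarb1 completed the coding genes, with log2 ratios of 0.60 to 0.64. Over 21 alternative settings Cyp2u1 stayed past 1.5-fold in 17, Akap13 in 14, Tstd1 in 12 and Scarb1 in 11, with Tstd1 down to -0.15 and Scarb1 to -0.12.

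The major urinary protein genes, a cluster on chromosome 4 of near-identical copies whose counts are uncertain where reads could be split, moved both ways. Mup20, also known as darcin, was detected in every barcode of both groups and had medians of 10234 and 7778 CPM and a log2 ratio of 0.70 (interval 0.67 to 0.72). Mup21 had a log2 ratio of 1.41, and Mup17 and Mup9 were lower, at -1.57 and -0.91. Mup17 stood at 532 CPM in the periportal barcodes and 3417 CPM at the perivenous end. Of 12 Mup genes compared, 2 were higher (0.651% over all genes compared), 2 were lower (2.61%) and the median log2 ratio was -0.10. The noncoding RNA Gm26917 was also higher, with a log2 ratio of 0.74 on 429 CPM.

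**Figure D2:**
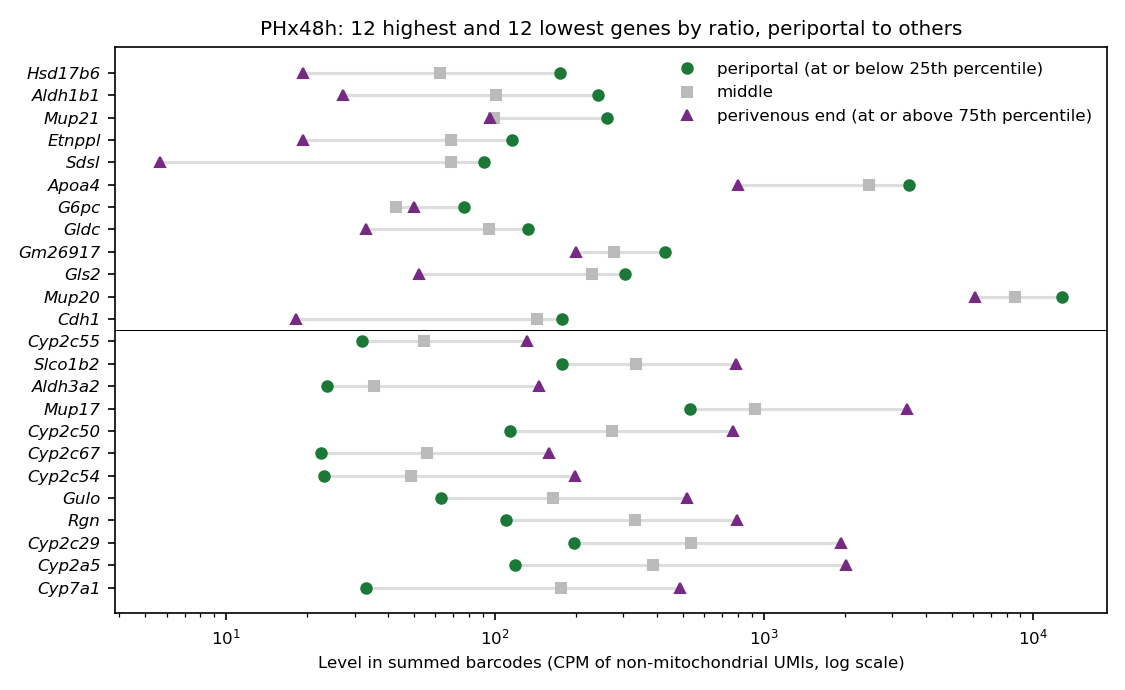
Level of the 12 genes with the highest and the 12 with the lowest ratio of periportal to other barcodes, outside the zone genes (x axis, CPM of non-mitochondrial UMIs in summed barcodes, log scale). Green circles are the periportal barcodes, grey squares the middle barcodes and purple triangles the perivenous end (zone share at or above its 75th percentile, 48.2%). The genes below the line rise from periportal over middle to perivenous end, and those above it fall in that order except for G6pc. The genes were chosen by their ratio to the middle and perivenous barcodes together, which in part fixes this order.

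Cyp7a1, the rate-limiting enzyme of bile acid synthesis (chr4:6265612-6275633, minus strand), had the lowest ratio. It stood at 33.2 CPM in the periportal barcodes, 176 CPM in the middle and 486 CPM at the perivenous end, with a log2 ratio of -2.95 (interval -3.37 to -2.56). In single periportal barcodes it had a median of 0 and a maximum of 1082 CPM, and in the others a median of 69.9 and a maximum of 2413 CPM. It was detected in 24.6% of the periportal barcodes and 50.8% of the others. At 2000 UMIs it was held by 7.4% of the periportal barcodes, 33.2% of the others and 15.1% of the barcodes under 2% mitochondrial UMIs. The periportal share lay below that of the barcodes with few mitochondrial UMIs.

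Of 32 cytochrome P450 (Cyp) genes compared, 9 were lower, against 2.61% of all genes compared. Only 1 (Cyp2u1) was higher, against 0.651% of all genes, and the median log2 ratio was -0.045. Cyp2a5, which hydroxylates coumarin and nicotine, ran from 0 over a median of 72.0 to 817 CPM in the periportal barcodes and from 0 over a median of 405 to 9083 CPM in the others. Its log2 ratio was -2.77 (interval -2.98 to -2.56). Cyp2c29 ran from 0 over a median of 164 to 1225 CPM against a median of 694 and a maximum of 9817 CPM, with a log2 ratio of -2.19 (interval -2.35 to -2.02). No periportal barcode came near the highest of the others for either gene. Of 8 Cyp2c genes compared, which lie in a cluster on chromosome 19, 6 were lower, against 2.61% of all genes. Besides Cyp2c29, the log2 ratios were -1.93 for Cyp2c54, -1.87 for Cyp2c67, -1.81 for Cyp2c50, -1.22 for Cyp2c55 and -1.09 for Cyp2c68. Cyp2c70 had -0.28 and Cyp2c44 was on the other side of 0, at 0.39. Cyp2c54, Cyp2c67, Cyp2c55 and Cyp2c68 stood at 23.1, 22.5, 32.0 and 40.3 CPM in the periportal barcodes. They passed the 50 CPM minimum through the others, and Cyp2c genes low in both groups were not compared. The Cyp2c copies are similar, so counts of single members are uncertain where reads could be split.

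Other enzymes, a transporter and a receptor were also lower. Rgn, a calcium-binding lactonase, and Gulo, the last enzyme of vitamin C synthesis, had log2 ratios of -2.04 and -2.03. The uptake transporter Slco1b2 stood at 178 CPM in the periportal barcodes and 451 CPM in the others, with a log2 ratio of -1.34. Aldh3a2, a fatty aldehyde dehydrogenase, had a log2 ratio of -1.44. Nr1i3, the xenobiotic receptor CAR that induces P450 genes, had a log2 ratio of -0.997 (interval -1.25 to -0.75). The secreted ribonucleases Rnase4 and Ang both had -1.03.

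Genes of wider function were among the remaining members of this group. Ccnd1, the cyclin D1 of entry into the cell cycle, stood at 129 CPM in the periportal barcodes and 228 CPM in the others, a log2 ratio of -0.83 (interval -1.05 to -0.61). Its median per barcode was 51.5 and 138 CPM, and the ranges overlapped from 0 to 1278 CPM. Its log2 ratio turned to 0.058 when barcodes were thinned to 1000 UMIs and chosen anew. Orm2, an acute phase glycoprotein, had a log2 ratio of -0.82, the transcription factor Cebpb had -0.70, and Prodh, which starts proline breakdown, had -0.93.

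The 28 periportal genes fixed outside the rule gave 27 genes over the minimum, and Apoc2 lay under it. Of the 27, 9 were higher by 1.5-fold, against 0.651% of all genes compared, and none was lower. Their median log2 ratio was 0.45, beside -0.06 over all genes compared. An interval above 0 was found for 23 of them, against 243 of all 2456 genes compared. Uroc1 and Ftcd, of histidine breakdown, had log2 ratios of 0.48 and 0.53, and Pigr, the receptor that carries IgA into bile, had 0.50. Igfals, the carrier of IGF-1 in plasma, was the lowest at -0.18.

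The 28 perivenous genes outside the rule gave 18 over the minimum. Of these, 14 were lower by 1.5-fold, against 2.61% of all genes compared, none was higher, and the median log2 ratio was -1.03. The remaining 4 were Cyp3a11 (-0.07), Gstm1 (-0.11), Gstm3 (-0.16) and Aldh1a1 (-0.50), all with an interval below 0. So had 511 of all 2456 genes compared. Of the lower genes, Cyp7a1, Cyp2c54 and Aldh3a2 stood under the minimum in the periportal barcodes, at 33.2, 23.1 and 23.7 CPM. Cyp3a11, a major drug-metabolizing P450, stood at 6423 CPM in the periportal barcodes and 6734 CPM in the others. Among genes under the minimum, the Wnt targets were sparse. Axin2 had 0 UMIs in the periportal barcodes, which allows up to 1.78 CPM, and stood at 1.78 CPM in the others. Tbx3 had 2 UMIs (1.18 CPM) against 15.4 CPM, and Lgr5 had 1 UMI (0.592 CPM) against 3.25 CPM. Ctnnb1, which encodes beta-catenin, was the only gene of the Wnt list over the minimum and had a log2 ratio of 0.02.

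**Figure D3:**
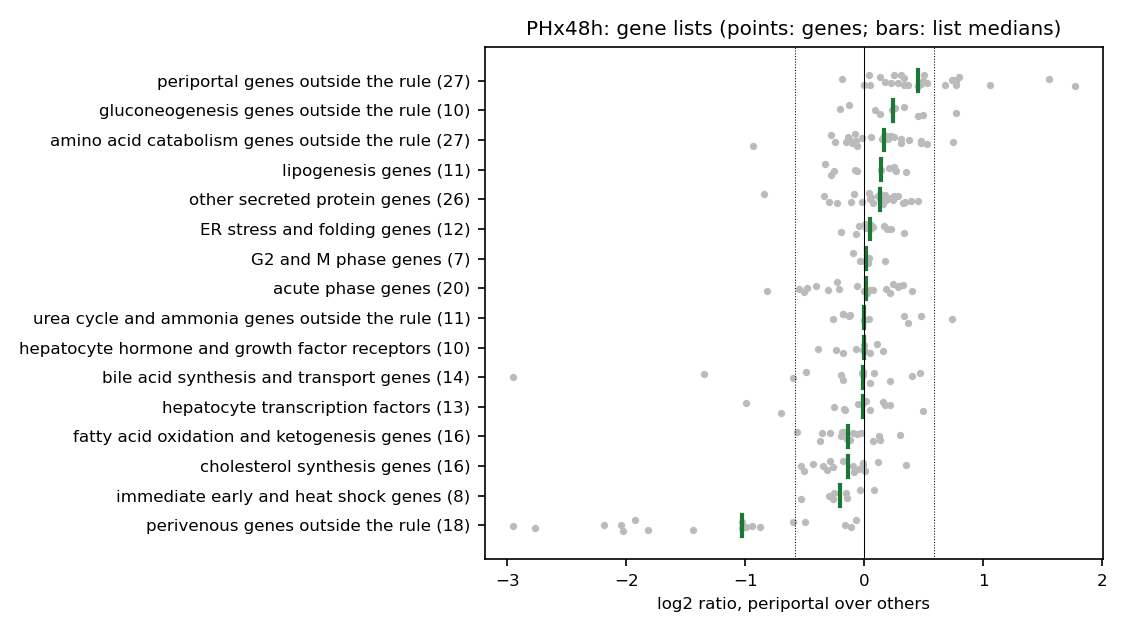
Log2 ratio of periportal to other barcodes at PHx48h (x axis) for the genes of each fixed list with at least 5 genes over the 50 CPM minimum (rows, number of genes in brackets). Points are genes, green bars are list medians and dotted lines mark 1.5-fold. The periportal list has the highest median, 0.45, the perivenous list the lowest, -1.03, and the medians of the other lists lie between -0.20 and 0.25.

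The pathways with which the portal side is usually identified differed less than the marker lists. Of 11 urea cycle and ammonia genes outside the rule, 1 (Gls2) was higher, none was lower and the median log2 ratio was -0.00. Cps1, which starts the urea cycle, stood at 2632 and 2558 CPM (log2 ratio 0.04), while Otc and Arg1 had log2 ratios of 0.36 and 0.33. Of 10 gluconeogenesis genes, 1 (G6pc) was higher and the median was 0.25, with Fbp1, the fructose bisphosphatase, at 0.50. Of 27 genes of amino acid catabolism, 1 (Gldc) was higher, 1 (Prodh) was lower and the median was 0.17. Over all genes compared, 0.651% were higher and 2.61% lower, and a single call in a list describes the gene and not the list.

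Lipid pathways stayed within 1.5-fold. The 16 genes of fatty acid oxidation had a median log2 ratio of -0.13, the 11 lipogenesis genes 0.14 and the 16 cholesterol synthesis genes -0.14, with none called in any. Acaa1b, a peroxisomal thiolase, was the lowest of these at -0.56, and Fdps, of the mevalonate pathway, had -0.53. Of 14 bile acid genes, 3 were lower (Cyp7a1, Slco1b2 and Cyp27a1 at -0.60), none was higher and the median was -0.01, where 2.61% of all genes compared were lower. Cyp27a1 stayed past 1.5-fold in 7 of 21 alternative settings, between -1.18 and -0.42. Cyp7b1, of the alternative route of bile acid synthesis, had a log2 ratio of 0.40 (interval 0.25 to 0.55). Cyp7a1 and Cyp7b1 therefore lay on opposite sides of 0, while Cyp27a1 lay on the side of Cyp7a1.

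Among secreted proteins, 1 of 20 acute phase genes (Orm2) and 1 of 26 others (Igfbp1, at -0.84) were lower, against 2.61% of all genes compared. None was higher. Saa1 and Saa2, the serum amyloid A proteins of the acute phase, were present in every barcode. Saa1 ran from 1223 over a median of 4953 to 12798 CPM in the periportal barcodes and from 1900 over a median of 7201 to 22475 CPM in the others, with a log2 ratio of -0.48, and that of Saa2 was -0.50. Hpx, which encodes hemopexin, stood at 21875 and 16513 CPM, a log2 ratio of 0.41. The median log2 ratio was 0.01 for the acute phase list and 0.13 for the other secreted proteins. Acute phase genes thus lay on both sides of 0, with the serum amyloids below and hemopexin above it.

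Of 13 transcription factors compared, 2 were lower (Nr1i3 and Cebpb, against 2.61% of all genes compared) and the median log2 ratio was -0.01. Hnf4a, the master regulator of hepatocyte identity, had 278 and 249 CPM (log2 ratio 0.16), and Bhlhe40, a clock repressor, had 0.50. The 10 hormone and growth factor receptors had a median of -0.00 with none called. Egfr, a receptor of liver growth signals, stood at 493 and 441 CPM. The 12 genes of folding in the endoplasmic reticulum had a median of 0.05 and the 8 immediate early and heat shock genes one of -0.20, with none called in either. Of the 3 nuclear transcripts compared, Malat1 had a log2 ratio of 0.30, Kcnq1ot1 0.36 and Neat1 -0.06.

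Few genes of the progenitor, fetal and biliary list reached the minimum. Besides Cdh1, only Tnfrsf12a, a receptor of the TWEAK pathway, did, with a log2 ratio of -0.04. Under the minimum, Spp1, which encodes osteopontin, stood at 78.2 CPM in the periportal barcodes and 24.8 CPM in the others, and Slpi, a secreted protease inhibitor, at 50.9 and 22.2 CPM. Spp1 was detected in 57 periportal barcodes (30.5%) and 54 others (9.69%), and 10 barcodes held 52.3% of its periportal UMIs. The transcript was concentrated in few barcodes. Sox9, a transcription factor of bile duct cells and progenitors, stood at 20.1 and 10.7 CPM and was detected in 14.97% and 5.75% of barcodes, and the keratin Krt23 in 5.35% and 1.26%, with at most 2 UMIs of either in a barcode. At least 3 UMIs of Spp1 and Slpi together were held by 25 periportal barcodes and 13 others. Without these barcodes 18 genes were higher and 65 lower, and the log2 ratios of Hsd17b6 and Aldh1b1 were 1.51 and 1.54.

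Cell cycle transcripts were examined because 48 h lies in the window of hepatocyte division. The 30 genes of the G2 and M phase list summed to 998 CPM in the periportal barcodes, and the 7 of them over the minimum had log2 ratios with a median of 0.02 and none called. Cdk1, the mitotic kinase, stood at 78.8 and 69.8 CPM, and Mki67 at 75.8 and 74.0 CPM. At 2000 UMIs per barcode, 35.2% of the periportal barcodes (62 of 176, exact binomial interval 28.2 to 42.8%) held at least 2 UMIs of the list. The share was 35.9% in the middle barcodes and 44.6% (36.7 to 52.7%) at the perivenous end. All lay below the 64.2% of the barcodes with under 2% mitochondrial UMIs, whose nature was not tested. The shares count barcodes with UMIs, not dividing cells. Without thinning the periportal share was 67.9%. For S phase genes the shares at 2000 UMIs were 32.4%, 29.2% and 31.8%, with 41.6% in the barcodes under 2% mitochondrial UMIs. At 1000 UMIs, with all 187 periportal barcodes kept, they were 9.63% (5.81 to 14.8%), 14.8% and 18.3% (13.0 to 24.6%), so the order depended on the depth chosen.

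**Figure D4:**
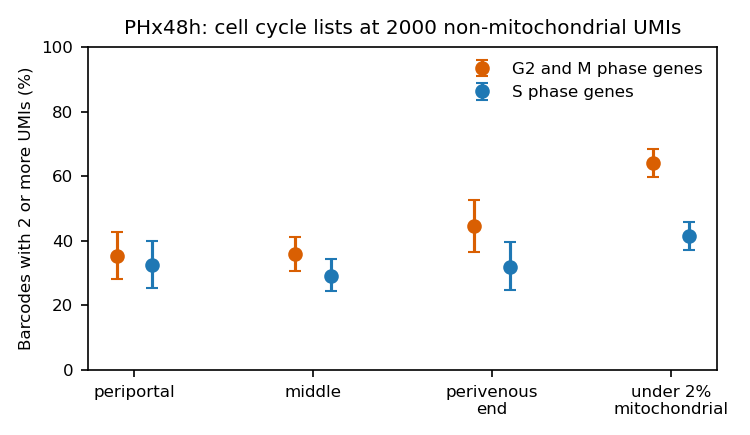
Barcodes of the PHx48h library with at least 2 UMIs of the G2 and M phase (orange) or S phase (blue) gene list after thinning to 2000 non-mitochondrial UMIs (y axis, %). Points are shares with exact 95% binomial intervals for the periportal barcodes, the middle barcodes, the perivenous end and the barcodes under 2% mitochondrial UMIs. The last are highest in both lists at 64.2% and 41.6%. The perivenous end is a zone share at or above its 75th percentile, 48.2%.

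The same rule was applied to the 0 h library, from which no periportal barcode at 48 h was chosen. It gave 526 barcodes at or below a 25th percentile of 27.3% and 1527 others, with medians of 1870 and 1584 non-mitochondrial UMIs. Of 1832 genes compared, 31 were higher (1.69%) and 218 were lower (11.9%) at 0 h. Of the 16 genes higher at 48 h, 12 were over the minimum at 0 h, 11 of them in the same direction and 7 past 1.5-fold. Of the 64 lower at 48 h, 45 were over the minimum, 45 in the same direction and 34 past 1.5-fold. The exception was Gm26917, with a log2 ratio of -0.08 at 0 h. The rule acts on the same zone genes in both libraries, so a shared direction is a description.

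Single genes differed in size between the libraries. Hsd17b6 had a log2 ratio of 1.22 at 0 h and 1.77 at 48 h, whereas Cdh1 had 1.23 and 0.68. Nr1i3 had -2.55 at 0 h and -0.997 at 48 h, and Gstm1 and Gstm3, glutathione transferases, had -1.19 and -1.68 at 0 h and were close to 0 at 48 h. Whether such differences exceed the variation between mice was not tested. The periportal list had a median of 0.38 at 0 h and the perivenous list one of -1.59. Across the 1625 genes compared in both libraries, Pearson's r of the log2 ratios was 0.66 and Spearman's rho 0.52, across genes, which are not independent replicates.

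**Figure D5:**
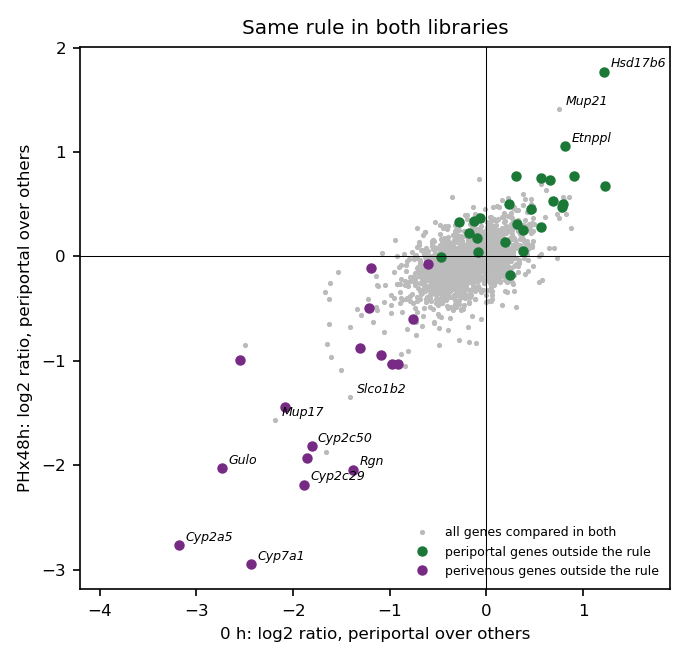
Log2 ratio of the barcodes at or below the 25th percentile of the zone share to the other barcodes at 0 h (x axis) and at PHx48h (y axis) for the 1625 genes compared in both. Green points are periportal and purple points perivenous genes outside the rule; the perivenous points lie at or below 0 in both libraries.

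The periportal barcodes at 48 h were last set beside those chosen by the same rule at 0 h. Of 2117 genes compared, 748 were at least 2-fold higher at 48 h (35.3%) and 198 at least 2-fold lower (9.35%), and the median log2 ratio was 0.48. The other barcodes of the sets had a median of 0.34 over the same genes. Depth, zone limit and condition differ between the libraries and cannot be told apart. Apoa4 stood at 138 CPM at 0 h and 3468 CPM at 48 h, a log2 ratio of 4.65, with 4.78 in the other barcodes. Arg1 had 2.39 in the periportal barcodes and 1.77 in the others. G6pc was lower at 48 h by both comparisons, at -1.91 and -2.38, and Pigr was at -1.77 and -1.47.

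By list, the median log2 ratio of 48 h to 0 h in the periportal barcodes was 1.37 for gluconeogenesis genes (10 compared, 6 past 2-fold higher, 2 lower) and 1.18 for fatty acid oxidation (15 compared, 9 higher, none lower). It was 1.24 for transcription factors (13 compared, 8 higher) and 1.70 for immediate early and heat shock genes (7 compared, 5 higher, 1 lower), a list that also responds to the dissociation of tissue, with 0.88 in the other barcodes. The bile acid genes had a median of -1.08 (12 compared, 8 lower) and the genes of the endoplasmic reticulum one of -0.89 (13 compared, 6 lower). All medians are to be read against 0.48 over all genes. The counts are to be read against 35.3% of all genes 2-fold higher and 9.35% 2-fold lower. The gluconeogenesis list held enzymes shared with glycolysis, such as Eno1 and Pgk1, and left out the zone gene Pck1. Its G6pc was lower at 48 h, at -1.91. The G2 and M phase list summed to 13.2 CPM at 0 h and 998 CPM at 48 h, and the S phase list to 58.6 and 713 CPM. The other barcodes had medians on the same side of 0 for each of these 6 lists.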

How the data were processed

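Single-cell RNA-Seq of hepatocytes was measured in 2 libraries, 0 h and PHx48h, grouped by the time point in their labels. Reads were processed by the authors in Cell Ranger against mm10, per the submitters' notes (version not given in the sources used here), and the authors deposited whole-number UMI counts per gene and barcode without normalization. The authors excluded high mitochondrial content and doublets at thresholds not given, and the deposited barcodes above 30% mitochondrial UMIs were used here. The members, gene lists and tests were chosen with earlier results of these data known.

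Counts were summed over the barcodes of a group with numpy 2.4.6 and scaled to CPM of non-mitochondrial UMIs. Ratios have exact conditional binomial (Clopper-Pearson) 95% intervals, which cover counting error only. Cells of 1 library are not replicates, so no p-value was computed. Genes with at least 50 CPM in both groups together were compared, and a 1.5-fold difference was called (2-fold between libraries). Named genes were the 12 with the highest and the 12 with the lowest ratio, up to 4 of each of the 20 lists by size of the ratio, the 15 zone genes, and list members under the minimum. Akap13, Aldh1a1, Ang, Ccnd1, Cps1, Cyp2c44, Cyp2c68, Cyp2c70, Cyp2u1, Cyp3a11, Cyp7b1, Gstm1, Gstm3, Hnf4a, Hpx, Igfals, Mki67, Mup9, Pigr, Rnase4, Scarb1, Tstd1 and Uroc1, and Hamp, Rps12-ps3 and Scd1 in the closing section, were chosen after their values were seen. Doublets were called with Scrublet through Scanpy 1.11.5 (9 in the set, 1 periportal) and kept. Shares of barcodes were compared after thinning to 2000 UMIs (random seed 1), which left out 11 periportal barcodes. Gene coordinates came from GENCODE M21 of GRCm38 by identifier, with 151 of 151 matched, and promoters from RefSeq on GRCm38.p6. The ratios and their intervals were tested on simulated counts that held no variation between barcodes beyond counting. The choice by zone share, the 0 h comparison and the cell cycle shares were not simulated. Alternatives covered the mitochondrial and zone limits, scaling (edgeR 4.0.16 TMM factors among them), depth, minimum and fold.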

Additional observations from a re-analysis of the deposited data

How the results depend on the processing

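For 80 genes past 1.5-fold, 1676 values under 21 alternatives kept the direction in 1664, turned in 12 and stayed past 1.5-fold in 1391. The genes were picked by their ratio in these barcodes, which most alternatives reuse, so a kept direction is a description and no support for the calls. Cyp27a1 and Isyna1 stayed past it in 7 of 21. For the 7 main results, 72 of 112 alternatives stayed within the main value's spread or 1.5 times its count, and 40 moved. Only the medians of the periportal and perivenous lists could turn, and neither did. The main counts were 16 higher and 64 lower. A mitochondrial limit of 50% and the barcodes over 50% alone gave the same barcodes, which the tallies above count under both names. There 27 were higher, 112 lower and the perivenous list median was -0.84. The barcodes of 30 to 50% gave 38, 108 and -1.23. The 10th percentile as zone share limit gave 27 higher, a limit of 6.93% and a periportal median of 0.33, and the 33rd percentile 25 higher and 13.7%. Leaving Cyp2e1 or Cyp2f2 out of the zone share moved the limit to 8.22% and 13.0%. Comparison with the perivenous end alone gave 135 higher and 256 lower, with medians of 0.73 and -1.72. CPM without the 20 most abundant genes gave 41 higher, and the mean of single-barcode CPM 34. The median over all genes was -0.06, -0.00 without those 20 genes and -0.03 with TMM factors. Without barcodes holding 3 UMIs of another cell class, 39 were higher and 100 lower. Under the median depth the counts were 176 and 337, and Scarb1 (-0.12) and Ehmt2 (0.22) turned, as did Scarb1 at the 10th percentile (-0.086). Thinning to 1000 UMIs left 51 periportal barcodes, with 452 higher, 674 lower and a perivenous median of -1.79. There Tstd1 (-0.15), Gstm4 (0.11), Sdsl (-0.37), Htatip2 (0.78), Ccnd1 (0.058), Isyna1 (0.021), Pla2g6 (0.021), Prlr (0.44) and Abcf1 (0.59) turned. A minimum of 20 CPM gave 65 and 158, one of 100 CPM 7 and 32, and a fold of 2 gave 4 and 17. The share of periportal barcodes with G2 and M phase UMIs was 18.2% at 1000 UMIs, 67.9% without thinning, 20.5% for 3 UMIs and 26.7% at the limit of 50%. Of the genes called at 48 h that were also compared at 0 h, 56 of 57 kept their direction, and 19 of 19 past 2-fold. At a mitochondrial limit of 50% it was 65 of 75, at 20% 67 of 68, and with at least 20 zone UMIs 53 of 55. The causes of these changes were not tested. The alternatives without other cell classes except cholangiocytes, without shared barcode sequences and without Spp1 and Slpi barcodes were chosen after seeing the data. Mitochondrial content and depth limit these barcodes, and 1 library per group leaves the variation between mice unknown. No paired analysis was possible because each group held 1 library, and no replicate could be left out.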

Other observations

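The cytosolic ribosomal protein genes, a family chosen after its values were seen, were lower in the periportal barcodes as a group. The 78 genes compared had a median log2 ratio of -0.31, beside -0.06 over all genes, with a range from -0.76 to 0.04. Of them 73 had an interval below 0 and none above it, and 1, Rps12-ps3, was lower by 1.5-fold (74 UMIs against 250). Over all 2456 genes compared, 511 had an interval below 0 and 243 above it, and 2.61% were lower by 1.5-fold. At 0 h the median over 74 of these genes was -0.45. The median was -0.48 among barcodes under the median depth of the set and -0.26 among those at or over it.

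The periportal barcodes also varied among themselves. At 2000 UMIs, 285 genes had a mean of at least 1 UMI in the periportal barcodes, and the median over these genes of the coefficient of variation beyond counting error was 0.28. It was highest for Scd1, the stearoyl-CoA desaturase of fat synthesis, at 1.55, with 0.67 in the other barcodes. Scd1 ran from 0 over a median of 1 to 22 UMIs and was at 0 in 58 of 176 barcodes, although its summed level differed little between the groups (924 and 964 CPM). Cyp2c70, a P450 enzyme of muricholic acid synthesis, had 0.75 in the periportal barcodes and 0.11 in the others. Hamp, which encodes the iron hormone hepcidin, had 0.84 and 0.56. Among the zone genes, Sds had the highest value, 0.69, with 1.02 in the others. The imprinted noncoding RNA Meg3 had 1 UMI in the periportal barcodes and was detected in 12 others, with at most 25 UMIs in a barcode.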
